A study of Mus musculus with 8 samples.

Results

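Regulators of alternative splicing are the proteins that decide which exons of a primary transcript are kept. The group described here holds the 33 genes of the authors' deposited table that carry the annotation term for regulation of alternative mRNA splicing via the spliceosome and whose mean of the WT and knockout expression values is 10 or more. The term marks 40 of the 16640 genes listed, and 7 of them lay under that floor. Members were thus chosen by annotation and by the level of a gene rather than by a threshold on its change, so the levels below are a description. The mean uses both groups, so a gene can pass the floor through its knockout value alone, as Rbfox3 did. The group itself was picked for description with earlier results of these data known, so its shift is not independent evidence.

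Whole livers of 8 chow-fed mice aged 1 year were compared by bulk RNA sequencing. Per the labels, 4 livers came from WT mice and 4, called Huwe1_LKO here, from mice with a knockout of Huwe1 confined to the liver. Huwe1 encodes a HECT-type ubiquitin ligase. The sources used here do not give the promoter driving the deletion, the exons removed or the sex of the mice, and whole tissue also holds cells other than hepatocytes. The deposited table gives 1 normalized value per gene and group, so no spread between livers is shown, and each error below is a standard error implied by the deposited p for that log2 difference. If the deposited fold changes were shrunken and the p-values come from unshrunken ones, these errors and the intervals built on them are too narrow.

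Alternative splicing lets a gene yield several messenger RNAs. SR proteins, which carry stretches rich in serine and arginine, mostly bind exons and favour their inclusion, while heterogeneous nuclear ribonucleoproteins (hnRNPs) often oppose them, and kinases that phosphorylate SR proteins tune their activity. Factors whose levels differ between tissues, such as the RBFOX, MBNL and PTB proteins, add the patterns of a tissue. In liver the adult pattern of exons is set after birth. Many of these regulators limit their own level by splicing in exons that send the transcript to nonsense-mediated decay.

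Of the 33 regulators, 7 rose in Huwe1_LKO livers and 0 fell at an adjusted p under 0.05 in the authors' deposited table. They are the kinase gene Dyrk1a, the tissue regulator Rbfox2, Rbm5, the hnRNP genes Hnrnpl, Rbmx and Hnrnpa1, and the RNA helicase gene Ddx5. Among all 12309 genes with a mean value of 10 or more, 5.69% were called higher and 7.40% lower, 13.1% in either direction. The 7 regulators make up 21.2% of the group. Their rises were small, from 1.20-fold for Hnrnpl to 1.39-fold for Hnrnpa1. At an unadjusted p under 0.05 in DESeq2's deposited result, 12 members were higher and 1, Sap18, was lower, against 12.2% and 14.2% of all genes at that floor. The count of members rests on the threshold and on how fold changes are centred. At an adjusted p under 0.01 in the deposited table Dyrk1a alone was called, against 3.25% of genes higher. With fold changes centred on the 2080 most abundant genes, 11 members were higher and 0 lower, and the shares of all genes were 9.15% higher and 4.99% lower.

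Most of the other members also had a higher value in Huwe1_LKO without passing. A log2 fold change above 0 was listed for 29 of 33 members, against 51.3% of the 12309 genes. The median over the members was 0.20, and over all those genes it was 0.01. With no floor, 29 of the 40 annotated genes were above 0 and 11 below, as all 7 under the floor were below 0. Members were also measured with more precision than most genes, as their median implied standard error was 0.12 against 0.17 (on the assumption named above), and the part of that precision in the share of calls was not tested. Of genes with a mean value of 100 or more, a class that holds 31 of the members, 5.95% were called higher and 46.8% had a log2 fold change above 0.

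**Figure D1:**
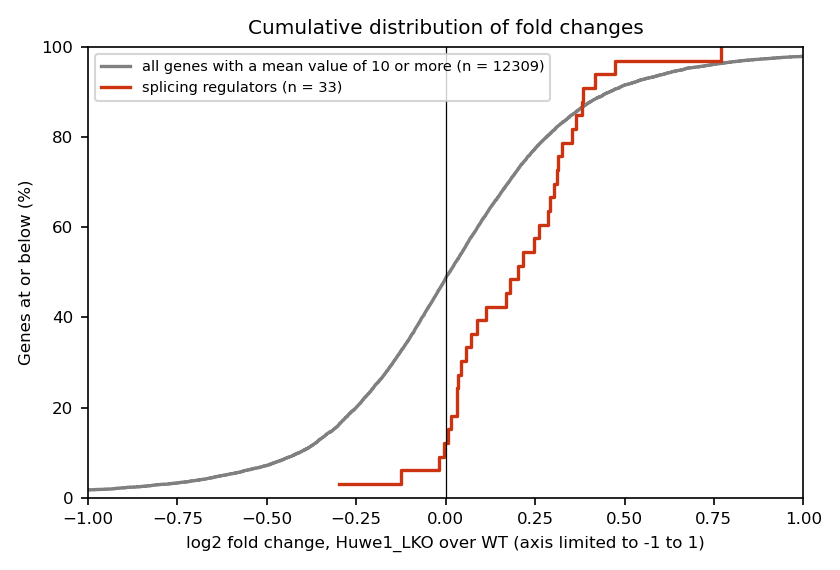
Cumulative share of genes (vertical axis, percent) at or below each log2 fold change of Huwe1_LKO over WT (horizontal axis), for the 33 splicing regulators in red and all 12309 genes with a mean value of 10 or more in grey. The red curve lies to the right of the grey one over most of its length, with a median of 0.20 against 0.01.

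Promoters of the members that rose together are shown because their upstream sequence can be read beside the shared direction. The RefSeq promoter windows (GRCm38.p6), from 250 bases before to 50 after the start of transcription, included 29 of the 33 members and 6 of the 7 that rose. The 4 printed below are the 250 bases before the start for every listed start of a risen gene where that stretch holds no annotated untranslated region, and capitals mark CCAAT or its reverse complement ATTGG, the letters of the CCAAT box.
Hnrnpa1, chr15:103240147-103240396, plus strand: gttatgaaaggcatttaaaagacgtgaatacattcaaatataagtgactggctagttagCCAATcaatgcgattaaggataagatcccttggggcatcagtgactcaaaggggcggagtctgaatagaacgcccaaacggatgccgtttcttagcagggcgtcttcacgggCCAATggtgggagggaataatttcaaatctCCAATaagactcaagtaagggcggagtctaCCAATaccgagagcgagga
Rbm5, chr9:107771003-107771252, minus strand: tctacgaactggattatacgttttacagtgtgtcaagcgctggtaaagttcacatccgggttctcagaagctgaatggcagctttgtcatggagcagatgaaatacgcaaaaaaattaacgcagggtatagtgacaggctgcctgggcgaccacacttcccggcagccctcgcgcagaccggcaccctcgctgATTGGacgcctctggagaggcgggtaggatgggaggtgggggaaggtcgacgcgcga
Rbmx, chrX:57393037-57393286, minus strand: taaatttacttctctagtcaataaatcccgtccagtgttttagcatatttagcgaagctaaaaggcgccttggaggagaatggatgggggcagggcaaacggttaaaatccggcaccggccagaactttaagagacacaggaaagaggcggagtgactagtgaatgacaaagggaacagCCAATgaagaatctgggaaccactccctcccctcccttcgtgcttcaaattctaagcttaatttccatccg
Dyrk1a, inner start, chr16:94611169-94611418, plus strand: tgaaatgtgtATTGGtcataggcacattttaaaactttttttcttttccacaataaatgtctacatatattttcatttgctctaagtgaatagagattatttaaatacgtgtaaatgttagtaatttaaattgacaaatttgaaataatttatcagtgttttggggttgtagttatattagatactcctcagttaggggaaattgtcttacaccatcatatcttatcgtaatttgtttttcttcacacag

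The Hnrnpa1 stretch held 4 copies of CCAAT in the direction of the gene. The Rbmx stretch held 1 in the direction of the gene and the Rbm5 and Dyrk1a stretches 1 each on the other strand. The Dyrk1a stretch had a G and C content of 27.2%, against 46.0% to 55.6% in the other three. Counting both strands and every listed start, all 6 risen members with a window (Dyrk1a, Rbm5, Hnrnpl, Ddx5, Rbmx and Hnrnpa1) had CCAAT in at least 1 window, as did 8 of 23 members that were not called. The same letters occurred for 43.1% of the genes with a mean value of 10 or more that have a window, and for 43.2% of those called higher. Dyrk1a and Ddx5 have several listed starts. For Dyrk1a only the window of the inner start held the letters, while those of its outer starts, with a G and C content of 74.4%, held 0. Dyrk1a thus counts among the 6 only through its inner start. That stretch ends in a run rich in T and C followed by AG, as introns do before an exon. It may therefore be intron rather than promoter. Whether the inner start is used in these livers was not tested. Over windows the count was 6 of 10 for the risen members against 37.4% of all 32851 windows and 37.7% of the 12637 windows of genes at that floor. Over all members it was 16 of 40 windows (40%) and 14 of 29 genes (48.3%), near those shares. This motif was singled out after the sequences were seen, among 7 motifs searched on both strands. The other motifs are given per window, as the share of the 40 windows of all members beside that of windows of genes at the floor and of all windows. The GC box GGGCGG was in 60% of member windows, 60.7% at the floor and 35.7% of all, and the ETS core CGGAAG in 37.5%, 29.3% and 16.9%. The TATA motif TATAAA was in 22.5%, 7.65% and 13.6%, and the E-box CACGTG in 17.5%, 9.79% and 7.15%. The cyclic AMP element TGACGTCA was in 0%, 2.85% and 1.79%, and the NRF1 motif in 5%, 2% and 0.971%. These are descriptions of 29 genes, with no test. A match describes letters and does not show that a factor binds there.

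Kinases that act on SR proteins were represented among the members by Dyrk1a (chromosome 16, 94569947 to 94695519 in GRCm38), a dual-specificity kinase that phosphorylates several splicing factors. The authors' deposited table lists it at 319 for WT and 426 for Huwe1_LKO. The second value is 1.34-fold the first, a log2 fold change of 0.42 with an implied standard error of 0.10 (DESeq2's adjusted p = 0.00063). It was the member with the smallest p, at rank 519 of the whole deposited table.

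Of the 4 hnRNP and PTB genes among the members, 3 were called higher, the most of any role. Hnrnpa1, which binds exonic and intronic silencers and opposes SR proteins, was listed at 621 for WT and 862 for Huwe1_LKO by the authors' deposited table. The log2 fold change was 0.47 (implied standard error 0.17, adjusted p = 0.0459 by DESeq2), the largest of the called members and the one nearest to the threshold. Hnrnpl (chromosome 7, 28808546 to 28822268), which binds CA-rich RNA, rose from 1323 to 1587 there, by 0.26 on the log2 scale and with the smallest implied standard error among the members, 0.08 (DESeq2's adjusted p = 0.0242). Rbmx, the X-linked gene of hnRNP G, which binds nascent transcripts and also has roles in chromosome cohesion, rose from 252 to 325 in that table, by 0.37 on the log2 scale (implied standard error 0.12, adjusted p = 0.0279 by DESeq2). Ptbp1 (chromosome 10, 79854432 to 79864435), the polypyrimidine tract binding protein that represses neuronal exons outside the nervous system, had 2053 in WT and 2546 in Huwe1_LKO and did not pass (DESeq2's deposited adjusted p = 0.0717), its log2 fold change being 0.31 with an implied standard error of 0.12. All 4 log2 fold changes of this group lay between 0.26 and 0.47.

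**Figure D2:**
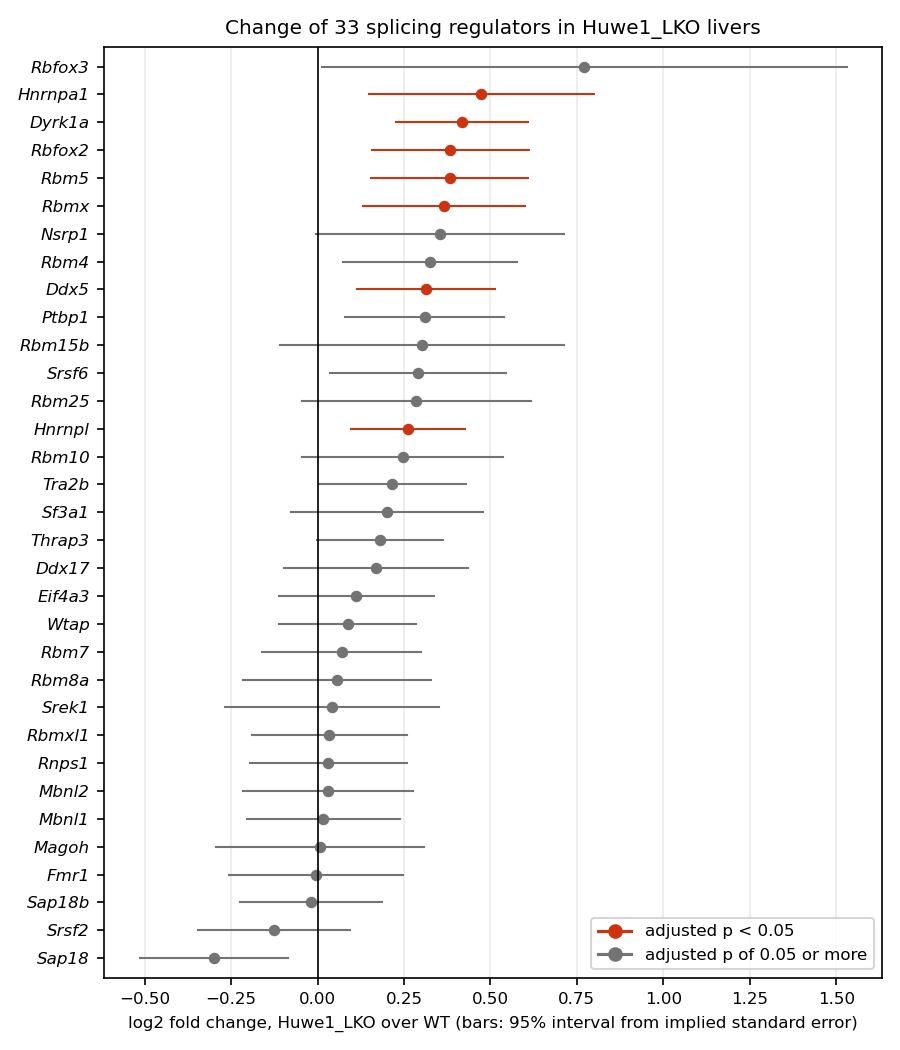
Deposited log2 fold change of Huwe1_LKO over WT for each of the 33 regulators (points, horizontal axis), with 95% intervals from the implied standard error (bars). The 7 called members are red and lie between 0.26 and 0.47, while the intervals of most others (grey) include 0.

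In the list of tissue-restricted and developmental regulators, Rbfox2 alone of 4 members rose. RBFOX2 binds GCAUG elements beside exons and is the main RBFOX protein outside neurons and muscle. Rbfox2 (chromosome 15, 77078990 to 77308434) was listed at 422 for WT and 550 for Huwe1_LKO by the authors' deposited table, a log2 fold change of 0.38 (implied standard error 0.12, adjusted p = 0.0134 by DESeq2). Fold changes across all genes followed deposited length and level, with a median of 0.09 in the 2463 genes at the floor with the greatest length. That length is 6070 bases for Rbfox2, far below its span on the chromosome, so it is not a genomic length. Once the trend was subtracted, the adjusted p of Rbfox2 was 0.124, and it was then not called. The MBNL genes, whose proteins promote adult splicing patterns, had nearly equal values in both genotypes. Mbnl1 had 1391 for WT and 1406 for Huwe1_LKO, and Mbnl2 had 848 and 866, per the authors' deposited table. The 95% interval of the fold was 0.867 to 1.18 for Mbnl1 and 0.862 to 1.21 for Mbnl2, so changes within those bounds could not be seen here. Rbfox3, the gene of the neuronal nuclear antigen NeuN, was the member with the lowest level, at 9.17 for WT and 15.7 for Huwe1_LKO in that table. Its log2 fold change of 0.77 was the largest in size of any member, but with an implied standard error of 0.39 it did not pass (DESeq2's adjusted p = 0.233).

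The DEAD-box RNA helicase genes Ddx5 and Ddx17 had the highest deposited values of the members when length was not taken into account. Ddx5 (chromosome 11, 106780355 to 106789185), which encodes p68, unwinds RNA at splice sites and also serves as a transcriptional coactivator. Its value rose from 5014 to 6231 by the authors' deposited table, a log2 fold change of 0.31 (implied standard error 0.10, adjusted p = 0.0263 by DESeq2). Its close relative Ddx17, the gene of p72, had 2598 for WT and 2920 for Huwe1_LKO and did not pass, its log2 fold change being 0.17 with an implied standard error of 0.14. Whether the change of Ddx5 differs from that of Ddx17 was not tested, and their 95% intervals of the fold overlap (1.08 to 1.43 and 0.935 to 1.35). Per kilobase of deposited length, Ddx5 had the highest mean deposited value of all 33 members, 1592, and Ddx17 was 6th with 675.

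RBM proteins and other factors that touch the spliceosome gave 1 rise among 8 members. Rbm5 (chromosome 9, 107740495 to 107771007) regulates exons of apoptosis genes, among them the death receptor Fas. Its value rose from 609 to 793 by the authors' deposited table, a log2 fold change of 0.38 (implied standard error 0.12, adjusted p = 0.0146 by DESeq2). Its paralog Rbm10 stood at 490 and 581, and did not pass (log2 fold change 0.25, adjusted p = 0.367 by DESeq2, from the deposited table). Rbm4, which acts on exons in muscle and pancreas and on translation, had 268 for WT and 335 for Huwe1_LKO in that table (log2 fold change 0.33, adjusted p = 0.0868 by DESeq2). Rbm15b, a partner of the RNA methylation machinery, had 88.6 and 109 there (log2 fold change 0.30, adjusted p = 0.472 by DESeq2). Neither passed. Rbm7, part of a nuclear complex that feeds RNA to the exosome, was listed at 486 for WT and 510 for Huwe1_LKO by the authors' deposited table. Wtap, a subunit of the adenosine methylation writer, had 473 and 503, and Sf3a1, a subunit of the U2 particle that marks the branch site, had 369 and 424 there, and none of these passed.

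Core members of the exon junction complex, which is laid down on spliced transcripts and guides decay, showed almost no difference. Magoh stood at 299.8 for WT and 301.4 for Huwe1_LKO, Rbm8a (Y14) at 491 and 511, and the helicase gene Eif4a3 at 564 and 610, per the authors' deposited table. Their log2 fold changes were 0.01, 0.06 and 0.11. The fold intervals ran from 0.816 to 1.24 for Magoh, 0.861 to 1.26 for Rbm8a and 0.926 to 1.26 for Eif4a3.

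No SR protein among the members was called in DESeq2's deposited result, although 2 of 3 had an unadjusted p under 0.05. Srsf6 was listed at 1634 for WT and 2000.03 for Huwe1_LKO by the authors' deposited table (log2 fold change 0.29, adjusted p = 0.152 by DESeq2). Tra2b, a partner of SR proteins in exon inclusion, had 547 and 636 (log2 fold change 0.22, deposited adjusted p = 0.231 by DESeq2). Srsf2, the classical speckle protein SC35, pointed the other way, with 2087 for WT and 1914 for Huwe1_LKO in that table (log2 fold change -0.13, adjusted p = 0.636 by DESeq2). The 95% interval of the fold of Srsf2 was 0.787 to 1.07.

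SR-related and nuclear speckle proteins among the members gave 0 calls of 6 by DESeq2. At an unadjusted p under 0.05 there was 1, Sap18 (chromosome 14, 57798189 to 57804980), a subunit of the ASAP complex that joins the exon junction complex, which the authors' deposited table lists at 374 for WT and 304 for Huwe1_LKO. Its log2 fold change was -0.30 (implied standard error 0.11), and its adjusted p of 0.0588 by DESeq2 missed the threshold. It passed, with an adjusted p of 0.0449, when only genes with a mean value of 10 or more were adjusted together. Rnps1, which shares the ASAP complex with Sap18, had 532 and 544 in the deposited table. Thrap3, a speckle protein and Mediator-associated factor, had 1432 and 1624 (log2 fold change 0.18), and Nsrp1, another splicing regulator of speckles, had 192 and 245 (0.35) there. Rbm25, a partner of the U1 particle, had 1404 and 1711 (0.29) and Srek1 372 and 383 (0.04) in the authors' deposited table, with adjusted p-values by DESeq2 from 0.244 for Thrap3 to 0.929 for Srek1 among these 5.

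The 3 members outside those groups had log2 fold changes from -0.02 to 0.03 and did not pass. Fmr1, the gene of the fragile X protein, had 248 for WT and 247 for Huwe1_LKO, Rbmxl1, a copy of Rbmx, had 250 and 256, and Sap18b, a copy of Sap18, had 1020.4 and 1007, per the authors' deposited table. Over all members, 10 had an unadjusted p of 0.5 or more in the deposited table.

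**Figure D3:**
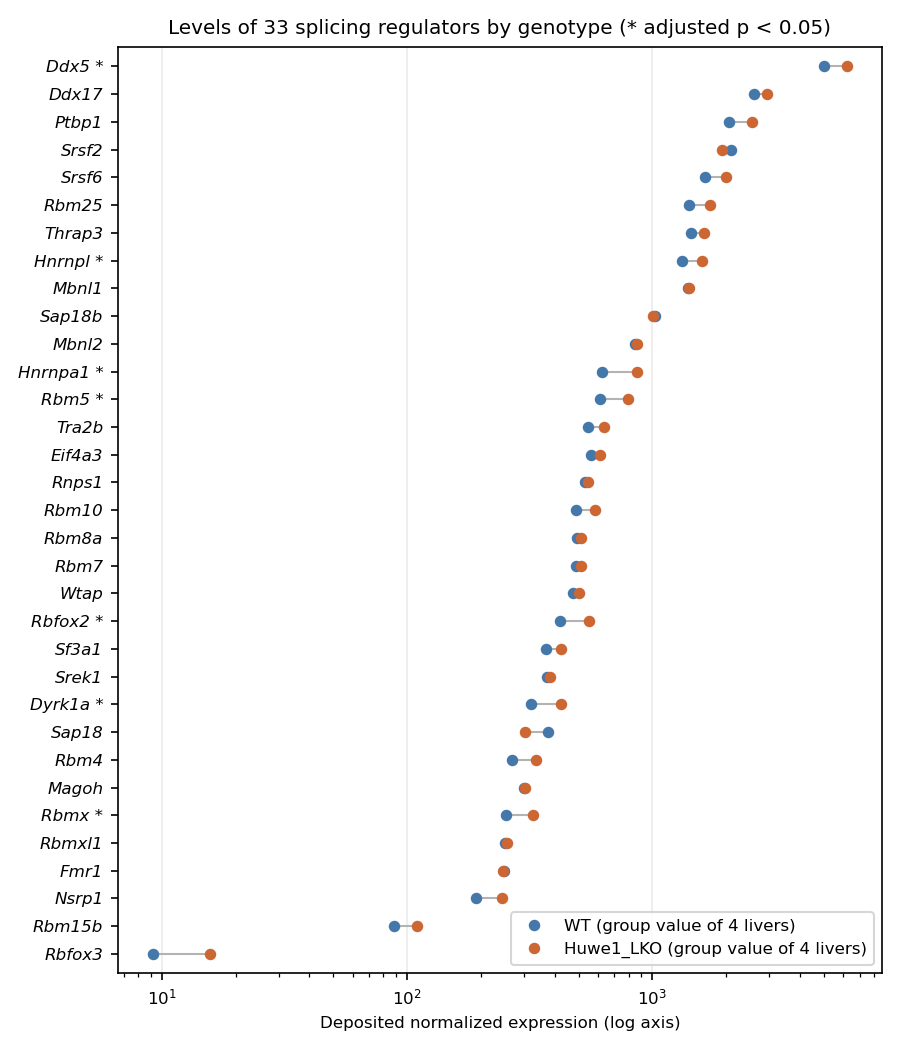
Deposited normalized expression of the 33 regulators (horizontal log axis) in WT (blue) and Huwe1_LKO (orange), 1 group value per genotype, ordered by mean level, with an asterisk for an adjusted p under 0.05. Levels run from 12.4 for Rbfox3 to 5623 for Ddx5 as the mean of both groups, and the orange point lies to the right in all but Sap18, Srsf2, Sap18b and Fmr1.

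Levels spanned a wide range within the group. By the mean of both deposited group values, Ddx5 (5623), Ddx17 (2759), Ptbp1 (2300), Srsf2 (2000.3) and Srsf6 (1817) were the highest. Just inside the floor of 10 lay Rbfox3 (12.4), the next members up being Rbm15b (98.9) and Nsrp1 (218), well above it. The highest below it were Gm21992 (2.36), Celf5 (1.13) and Srsf12 (0.634). The other annotated genes under the floor, Rbm11, Rbfox1, Myod1 and Celf3, had mean values from 0.121 to 0.38. None of the 7 was called in the deposited table. Gm21992 came nearest, with 3.50 for WT, 1.21 for Huwe1_LKO and an adjusted p of 0.0541 by DESeq2. Per kilobase of deposited length, Sap18b (1265), Srsf2 (1051), Ptbp1 (747) and Hnrnpl (679) followed Ddx5 in mean deposited value, and Rbfox3 (4.23) was the lowest. How far neighbours in these orders differ beyond the spread between livers cannot be read from 1 value per group.

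Some members share sequence with other genes, so the split of reads between them is uncertain. Of all 50-base windows in the GENCODE M21 transcripts of Sap18b, 98.8% also occur in transcripts of other genes, all of these in Sap18. For Sap18 itself the share was 15.3%, with 13.2% of windows found in Sap18b. The part of this sharing in the lower value of Sap18 was not tested. For Rbmxl1 the share was 79.6%, for Rbm4 57.5%, all of it with the overlapping gene Gm21992, for Rbm10 42.8% and for Hnrnpa1 28.2%, mostly with the gene Gm10052. For Ddx5 it was 14.6% and for the other 5 called members it was at most 1.48%. Without the 12 members in which 10% or more of windows were shared, 5 of 21 were called higher and 0 lower, and the median log2 fold change was 0.22.

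Members also shared annotation that the rule did not use. Of the 33, 29 were annotated with RNA binding, against 1108 of all 12309 genes at the floor, and 18 with nuclear speck, against 2.49%. Only Dyrk1a of those 18 was among the 7 called higher. Of 289 nuclear speck genes outside the members 8.65% were called higher, and of all genes at the floor 5.69%. The term for negative regulation of splicing covered 10 members, of which Hnrnpl and Dyrk1a were called. Outside the members it covered 14 genes, with 1 called higher and 1 lower. The term for positive regulation covered 4 members, of which 0 were called by DESeq2 (1 had an unadjusted p under 0.05, Tra2b). Outside the members it covered 13 genes, with 1 called higher and 1 lower. Circadian rhythm was annotated for Thrap3, Hnrnpl and Dyrk1a, of which Hnrnpl and Dyrk1a were called. Of 58 other genes with that term 8 were called higher (13.8%) and 8 lower. In GENCODE M21, 13 of 33 members (39.4%) had at least 1 transcript classed as a target of nonsense-mediated decay, against 28.5% of the 12267 matched genes. Among the called members 5 of 7 did (Rbmx, Hnrnpa1, Hnrnpl, Ddx5 and Rbm5), and among the others 8 of 26. Of all matched genes called higher 25.6% did. Called members also had more annotated transcripts, a median of 9 against 6.5 for the others and 5 for all matched genes. The part of that number in these shares was not tested. Transcripts classed as retained introns were listed for 21 members (63.6%) and for 59.3% of matched genes. The deposited values are per gene, so the share of such isoforms in these livers was not measured.

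Other genes of the splicing pathway were read from fixed lists, which were written with earlier results of these data known and in part overlap. On these, with 194 splicing and decay genes, of which 183 had a mean value of 10 or more, 14 were called higher (7.65%) and 2 lower (1.09%) in the authors' deposited table. Among all genes at the floor 5.69% were higher and 7.40% lower, so the share called higher was near that of all genes, and the same shares apply to each list below. The share called lower was below that of all genes. The median log2 fold change was 0.10, against 0.01. A value above 0 was listed for 121 of the 183 (66.1%), against 51.3% of all genes at the floor, so part of the upward shift was shared outside the members. Sets taken by annotation alone, outside the members, held fewer rises. Of 112 genes annotated with RNA splicing, 6 were called higher (5.36%) and 4 lower. Of 95 annotated with mRNA splicing via the spliceosome, 0 were called higher and 3 lower. The median log2 fold changes of these sets were 0.071 and 0.045. On the lists, SR-related and speckle proteins gave 5 of the 14 rises and 0 falls among 13 genes. Bclaf1, a relative of Thrap3, went from 683 to 954, Sfswap, an SR-like regulator, from 418 to 567, Son, a scaffold of nuclear speckles, from 1872 to 2365, and Pnn, the speckle protein pinin, from 845 to 1096, per the authors' deposited table. Srrm4, a regulator of microexons known from neurons, went from 71.6 to 158 there, with an implied standard error of 0.38 around a log2 fold change of 1.14 (adjusted p = 0.0312 by DESeq2). It was not called with the length and level trend subtracted.

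The other lists held few calls. Of 24 further hnRNP and related genes, Hnrnph1 (deposited log2 fold change 0.37) and Hnrnpa0 (0.33) rose and Pcbp1 (-0.28) fell, with a median of 0.04. Pcbp1 was not called when fold changes were centred on the most abundant eighth of genes or when the length and level trend was subtracted. Of 16 tissue-restricted and developmental regulators Khdrbs3, a STAR-family protein, fell, per the authors' deposited table, from 331 to 185 (log2 fold change -0.84, adjusted p = 0.000337 by DESeq2), the clearest change against the general direction. Rbm3, known for its response to cold, and Dazap1 rose among 19 RBM and related genes, with deposited log2 fold changes of 0.35 and 0.29. Among 11 kinases, phosphatases and importers of SR proteins, Akt1 (0.39) and Prpf4b (0.33) rose, the latter with an adjusted p of 0.0488 by DESeq2 that was lost under 2 of the alternatives for centring and trend.

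The lists for the core spliceosome and proteins tied to it gave 2 calls in all. Snrnp70, Snrpa and Snrpc of the U1 particle were not called. In the list for U1 and U2, Luc7l3 (deposited log2 fold change 0.42) and Prpf39 (0.42), both tied to U1, were called higher of 24. There 7 genes had an unadjusted p under 0.05, all higher, among them Sf3b1 and U2af2, which are also on the RBM list. In the list for the tri-snRNP and the Sm and LSm rings, 0 of 27 passed by DESeq2 and 0 had an unadjusted p under 0.05, and the median log2 fold change was -0.02. Of 21 genes of the later steps and the exon junction complex 0 passed by DESeq2, with 2 at an unadjusted p under 0.05. These are Acin1, also on the SR-related list, and Snw1, also on the RBM list. Of 9 further SR proteins 0 passed by DESeq2, with 1 at an unadjusted p under 0.05. Among 12 genes of nonsense-mediated decay Upf2 rose, per the authors' deposited table, from 224 to 300.1. No list of DEAD-box or RNA methylation genes (7 and 8 members) held a call by DESeq2, and each had 1 gene at an unadjusted p under 0.05.

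**Figure D4:**
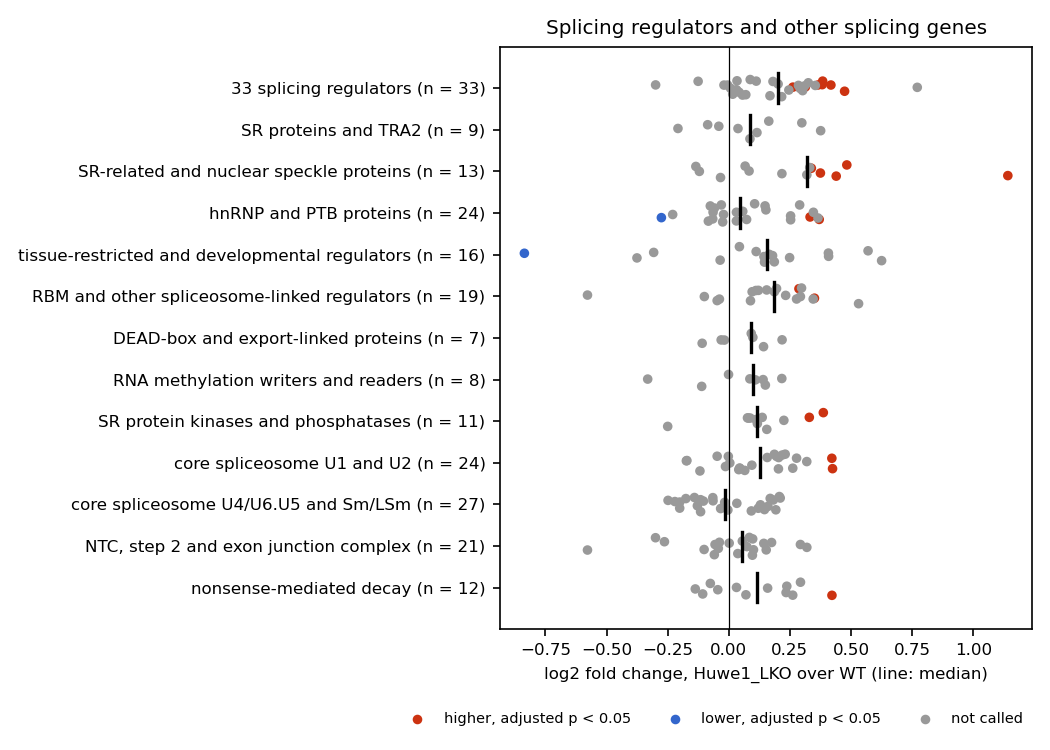
Deposited log2 fold change of Huwe1_LKO over WT (horizontal axis) for the 33 regulators (top row) and for other splicing genes by list, 1 point per gene, with the median as a black line. Red points were called higher and blue points lower at an adjusted p under 0.05. The SR-related and speckle list holds 5 red points of 13, and the list of the tri-snRNP and Sm and LSm proteins holds none of 27.

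The targeted gene and the tissue were checked in the same table. Huwe1 stood at 2666 for WT and 1784 for Huwe1_LKO, a log2 fold change of -0.58 (implied standard error 0.13, adjusted p = 0.000425 by DESeq2), and which exons the reads came from is not known. Hepatocyte markers were abundant in both groups, and 3 of 6 (Apoa1, Serpina1c and Hnf4a) rose in the authors' deposited table. Summed deposited values of 5 neutrophil markers were 126 in WT and 257 in Huwe1_LKO, with 2 called higher, and those of 5 markers of dividing cells were 144 and 232, with 0 called by DESeq2 (1 with an unadjusted p under 0.05). Summed values for cholangiocyte markers were 900.4 and 1620.1, of which Spp1 made up 722 and 1410. They were 2246 and 2380 for endothelial, 3985 and 4597 for stellate, 1569 and 1885 for macrophage, 90.2 and 124 for T and NK, and 117 and 124 for B cell markers, with 0 called in these 6 lists by DESeq2 (1 gene, of cholangiocytes, with an unadjusted p under 0.05). In whole tissue, more cells of a type and more RNA per cell cannot be told apart, and the part of these cells in the splicing results was not tested.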

How the data were processed

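RNA of 4 WT and 4 Huwe1_LKO livers was isolated by column and sequenced commercially, per the labels' protocols. The submitters' processing notes name mm10 and DESeq2, and the aligner, counting and filters were not given in the sources used. The deposited table holds a normalized signal for each gene and genotype, log2 fold changes (KO over WT) and the authors' p-values, per the file headers. Benjamini-Hochberg adjustment of all 16640 unadjusted p-values gave the deposited adjusted ones to within 1.74e-06, and the log2 fold change matched the ratio of the group values to within 4.71e-08. Group values summed to 17347886 (WT) and 17533080 (Huwe1_LKO); the depth of each liver is not known. No group value is 0 and the lowest is 0.115. The implied standard error was at most 0.567 over all genes and was not largest at the lowest levels. It was 0.21 for Celf3, with a mean value of 0.121, against 0.39 for Rbfox3 with 12.4. Whether fold changes were shrunken or a constant was added is not given in the sources used and was not tested.

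Refits planned for counts per liver could not be run on 1 value per group, so calls are the authors', at an adjusted p under 0.05. The implied standard error is the size of the log2 fold change divided by the normal score of its two-sided p, which assumes a Wald test on the deposited fold change and is too small if that fold change was shrunken and the p was not from it. Nothing in the labels says how livers were collected beyond genotype, so p-values measure the spread among these 8. Named genes were all called members, the 8 highest, the 8 uncalled with the largest change, those around the floor, other members by role, and called genes of the fixed lists. Members and lists were chosen with earlier results of these data known. A spreadsheet had turned 26 symbols into dates, which were restored from RefSeq (GRCm38.p6). Scripts were tested on simulated data and used numpy 2.4.6, scipy 1.17.1, pandas 2.3.3 and matplotlib 3.10.9 under Python 3.11.15. Alternatives are given in the closing section.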

Additional observations from a re-analysis of the deposited data

How the results depend on the processing

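Of the 7 called members, 7 stayed called with adjustment over genes at the floor, at an adjusted p under 0.1, and with centring on the most abundant eighth of genes, whose median log2 fold change was -0.08. With the threshold at 0.01 the count of called members was 1 (Dyrk1a), at an unadjusted p under 0.05 it was 13 (12 higher), with centring on that eighth 11 (11 higher), and with the length and level trend removed 11 (10 higher, with Rbfox2 lost and Ptbp1, Rbm4, Srsf6 and Thrap3 gained, and Sap18 lower). Centred on the median of genes at the floor, Hnrnpa1 missed the threshold (adjusted p = 0.0523) with its log2 fold change at 0.46 against 0.47, and Sap18 was called lower. Background calls were 9.15% higher and 4.99% lower with centring on that eighth, and 5.69% and 6.50% with the trend removed. The median of members ranged from 0.10 with no floor to 0.28. For the other splicing genes the main 16 calls (14 higher, 2 lower) became 6 at 0.01 (4 and 2, against 3.25% and 4.51% of all genes at the floor), 27 at 0.1 (24 and 3, against 7.78% and 9.67%), 40 at an unadjusted p (35 and 5, against 12.2% and 14.2%) and 32 with centring on the eighth (31 and 1). Huwe1 kept its call under the alternatives run. The exclusion of members with shared windows was chosen after seeing the data. No paired analysis was possible because the table holds 1 value per group, and leaving out each replicate was not run for the same reason.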
